A study of Mus musculus with 7 samples.

Results

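The genes described here are 8 regulators of fetal growth and developmental timing, namely the RNA-binding proteins Lin28a and Lin28b, their partner Trim71, the chromatin proteins Hmga1 and Hmga2, and the mRNA-binding proteins Igf2bp1, Igf2bp2 and Igf2bp3. They were chosen by name, and all 8 were found by their Ensembl identifiers among the 27138 features of the deposited count table. Read counts of polyadenylated RNA came from mouse embryonic pancreas at E15.5, in 4 WT and 3 cKO libraries, each from its own animal. WT embryos were mLINC00673fl/fl, that is, with 2610035D17Rik floxed, which is the ortholog in mice of a human long non-coding RNA, LINC00673, and are listed without Cre. The cKO embryos had the same floxed alleles together with Pdx1Cre, in which the Pdx1 promoter drives Cre in the pancreatic epithelium, so that mesenchyme, vessels, nerves and blood keep the floxed gene and Cre was present in cKO animals only. All embryos were labelled with the same day of gestation, and no finer staging (somites, crown-rump length) is given in the sources used here.

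LIN28A and LIN28B bind the precursors of the let-7 microRNAs and block their maturation. LIN28A recruits the uridylyl transferases TUT4 and TUT7, whose tails mark these precursors for decay. Mature let-7 in turn represses the mRNAs of Lin28a, Lin28b, Trim71, Hmga2 and the Igf2bp genes, which makes a switch from a fetal to a mature state. These genes are abundant in many embryonic tissues and decline as organs mature, and in the pancreas the same window sees multipotent progenitors give way to acinar cells filled with digestive enzymes and to hormone-producing endocrine cells.

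The let-7 seed is shown first because most of these mRNAs are known targets of let-7. Matches to it thus come with the choice of the genes. The seed, bases 2 to 8 of the mature microRNA, is in capitals in 3 members of the family taken from the RefSeq table on GRCm38.p6, at chr13:48538239-48538260 (minus strand), chr9:106178846-106178867 (plus strand) and chrX:151913229-151913250 (plus strand).
mmu-let-7a-5p: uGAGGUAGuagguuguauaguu
mmu-let-7g-5p: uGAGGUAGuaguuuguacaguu
mmu-miR-98-5p: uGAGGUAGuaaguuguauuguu
Of the 11 mature names of the family in that table, 10 carry this seed. No microRNA was measured in these libraries, which hold polyadenylated RNA.

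The complement of the seed, CTACCTC on the transcript strand, was searched in the annotated 3′ untranslated region of the longest coding transcript of each gene (GENCODE M21, GRCm38). It was found in all 8 genes. Hmga2, Lin28b, Trim71 and Igf2bp1 each held 4 matches, Lin28a held 2, and Hmga1, Igf2bp2 and Igf2bp3 held 1 each. Of 20965 genes with such a region, 8.85% held at least 1 match, 1.07% at least 2 and 0.0572% at least 4. These regions are long in several of the genes, so the share was also taken over genes whose region was within 20% of the same length. In that comparison 0.136% of 2201 genes held as many matches as Hmga2, with 3014 bases, 0.238% of 1262 as many as Lin28b, with 4445 bases, 0.504% of 793 as many as Trim71, with 5512 bases, and 0.355% of 564 as many as Igf2bp1, with 6337 bases. For the genes with 1 match the shares were 8.11% (Hmga1), 11.8% (Igf2bp2) and 13.1% (Igf2bp3), and for Lin28a with 2 matches 2.15%. Most of the 8 genes were known let-7 targets when chosen, so these shares describe them and test nothing. A match is a description of the letters and not of regulation in these embryos.

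The 4 matches of Hmga2, the gene with the most per kilobase (1.33), and the first match of Lin28b, Trim71 and Igf2bp3 are printed with the match in capitals.
Hmga2 match 1: gacattcaatttCTACCTCagc
Hmga2 match 2: cactcctcaataCTACCTCtga
Hmga2 match 3: atttgcaaggaaCTACCTCcac
Hmga2 match 4: caaaacacactaCTACCTCtta
Lin28b match 1: cgggcgggaagtCTACCTCatg
Trim71 match 1: attgcctaagtcCTACCTCagc
Igf2bp3 match 1: atttttactcaaCTACCTCagg
On GRCm38 the capitals of Hmga2 lie at chr10:120364225-120364231, chr10:120362988-120362994, chr10:120362550-120362556 and chr10:120361692-120361698, those of Lin28b at chr10:45381023-45381029, those of Trim71 at chr9:114512473-114512479 and those of Igf2bp3 at chr6:49086788-49086794. All lie in the 3′ untranslated region and are written as on the transcript, which is on the minus strand for each of these genes. The first match of Hmga2 began 58 bases after the stop codon and that of Lin28b 36 bases after it, whereas the only match of Igf2bp3 began at base 548.

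**Figure D1:**
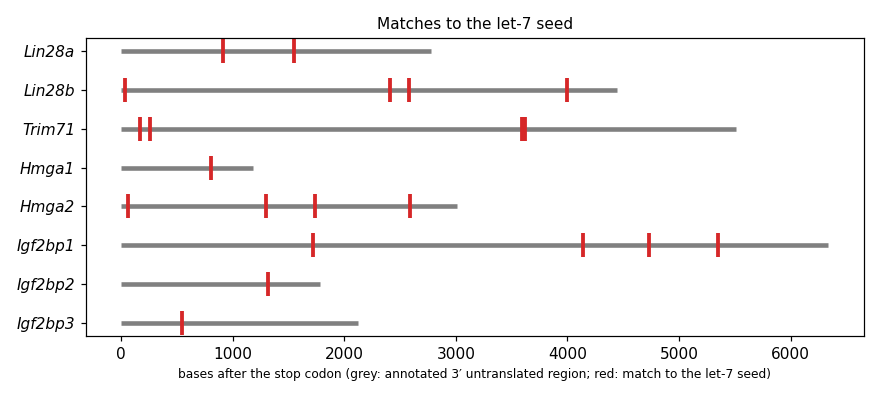
Matches to the let-7 seed (red) along the annotated 3′ untranslated region (grey) of the 8 genes, in bases after the stop codon. Lin28b, Trim71, Hmga2 and Igf2bp1 hold 4 matches each, and Hmga1, Igf2bp2 and Igf2bp3 hold 1.

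Library totals ran from 14883918 to 17767373 counts. The deleted gene, 2610035D17Rik, had 7.93 to 9.08 CPM (read counts per 1000000 counts of the scaled library total) in WT and 2.01 to 3.38 CPM in cKO, with no overlap. Over all tested features, 1.43% had groups that did not overlap with cKO lower. Among markers of the tissue, 10 of 10 epithelial and 13 of 13 mesenchymal markers had counts in every library. The 11 markers of neurons and Schwann cells summed to 225 to 1008 CPM, lowest in WT replicate 2 and highest in cKO replicate 1. WT replicate 4 and cKO replicate 1 stood apart in liver genes: the 12 liver markers summed to 1327 and 1971 CPM there, against 356 to 539 CPM in the other 5 libraries, and no marker was at 0 counts in any library. The column of WT replicate 4 carries another number in its name than those of the other 6 libraries, a number the sources used here do not explain.

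Levels of the 8 genes differed widely in WT when compared per kilobase of annotated exon. Hmga1 was highest with 99.0 ± 27.7 CPM per kilobase (SD, n = 4). Igf2bp2 followed with 21.96 ± 1.88 and Hmga2 with 18.9 ± 3.99 CPM per kilobase, a pair whose spreads overlapped. Igf2bp3 had 8.23 ± 1.10 and Igf2bp1 5.50 ± 0.606 CPM per kilobase. Trim71 had 1.52 ± 0.220, Lin28b 0.226 ± 0.0170 and Lin28a 0.0826 ± 0.0726 CPM per kilobase. The order was the same in cKO, where Igf2bp2 had 20.7 ± 2.87, Hmga2 17.4 ± 3.79 and Lin28b 0.255 ± 0.110 CPM per kilobase (SD, n = 3). The genes thus fell into abundant chromatin and mRNA-binding proteins and scarce LIN28 genes. These are levels in whole tissue, in which fewer cells of a type and less RNA per cell cannot be told apart. The counting did not keep the strand, and 18.7% of the exon bases of Igf2bp3 overlap Malsu1 on the opposite strand, so reads of these 2 genes can be mixed. For the other 7 genes at most 5.86% of exon bases overlapped any single other gene.

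Lin28a (ENSMUSG00000050966, chromosome 4), the LIN28 paralog of pluripotent cells, was at the limit of detection. Counts were 6, 0, 5 and 10 in WT replicates 1 to 4. They were 10, 2 and 5 in cKO replicates 1 to 3. The 0 counts in WT replicate 2 allow up to 0.178 CPM, from counting error only. Lin28a had too few counts for the fit across all genes. Its 2 highest libraries, WT replicate 4 with 0.707 CPM and cKO replicate 1 with 0.591 CPM, were the 2 highest in liver markers.

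Lin28b (ENSMUSG00000063804, chromosome 10), the paralog that blocks let-7 maturation in many fetal tissues, was detected at a low level in every library. Its 38, 32, 34 and 32 counts in WT replicates 1 to 4 gave 2.05, 1.91, 1.97 and 2.26 CPM. Its 57, 37 and 25 counts in cKO replicates 1 to 3 gave 3.37, 2.19 and 1.38 CPM. The 4 WT libraries lay within the range of the 3 cKO libraries, whose ends were cKO replicate 1 and cKO replicate 3. The exact Poisson 95% intervals of these ends, 43.2 to 73.9 counts and 16.2 to 36.9 counts, did not overlap, so that the spread among cKO libraries was larger than counting error. WT averaged 2.05 ± 0.154 CPM (SD, n = 4) against 2.31 ± 1.00 CPM for cKO (SD, n = 3), and the fitted log2 fold change was 0.17 (95% interval −0.53 to 0.88). Without cKO replicate 1 it was −0.19, so 1 library set its direction.

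Trim71 (ENSMUSG00000079259, chromosome 9), a ubiquitin ligase and mRNA repressor of early embryos, had 13.2, 17.3, 13.3 and 13.003 CPM in WT replicates 1 to 4. The cKO replicates 1 to 3 had 11.7, 15.99 and 12.99 CPM. WT replicate 2 and cKO replicate 2 were the high libraries, and the groups overlapped (log2 fold change −0.07, 95% interval −0.42 to 0.29).

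Hmga2 (ENSMUSG00000056758, chromosome 10), an AT-hook chromatin protein of proliferating fetal cells, had 123, 167, 118 and 104 CPM in WT replicates 1 to 4. The cKO replicates 1 to 3 had 88.8, 126 and 138 CPM. WT replicate 2 was highest and cKO replicate 1 lowest, a range of 1.88-fold, where the median over 10698 tested features with at least 10 CPM was 1.33-fold. WT averaged 128 ± 27.0 CPM (SD, n = 4) against 118 ± 25.7 CPM for cKO (SD, n = 3), and the log2 fold change was −0.12 (95% interval −0.57 to 0.33). Leaving out WT replicate 2 gave 0.031, and leaving out cKO replicate 1 gave 0.049.

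Hmga1 (ENSMUSG00000046711, chromosome 17), the other AT-hook protein, had 214, 291, 154 and 182 CPM in WT replicates 1 to 4 and 135, 229 and 171 CPM in cKO replicates 1 to 3. The log2 fold change was −0.24 (95% interval −0.82 to 0.35), and the groups overlapped. Hmga1b (ENSMUSG00000078249, chromosome 11), a near-identical copy whose reads can be split from those of Hmga1 in more than 1 way, took unequal shares of the reads of this pair. It held 37.0%, 37.3% and 36.7% of their summed CPM in WT replicate 3, cKO replicate 1 and cKO replicate 3. In WT replicates 1, 2 and 4 and cKO replicate 2 it held 6.64%, 8.91%, 9.09% and 8.005%. These 2 levels were found in both genotypes, and no library lay between them. Summed, both genes gave WT 249 ± 50.6 CPM (SD, n = 4) and cKO 245 ± 27.2 CPM (SD, n = 3), with p = 0.971 in a two-sided exact permutation test of its log2 values, and a log2 difference of −0.01 beside the −0.24 of Hmga1 alone.

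The IGF2BP proteins bind mRNAs such as Igf2 and Myc and control their stability, transport and translation. Igf2bp1 (ENSMUSG00000013415, chromosome 11) had 50.8, 54.4, 60.8 and 47.0 CPM in WT replicates 1 to 4 and 39.0, 51.6 and 57.9 CPM in cKO replicates 1 to 3. Igf2bp2 (ENSMUSG00000033581, chromosome 16), the member that persists in adult tissues, had 155, 182, 163 and 150 CPM in WT and 131, 157 and 172 CPM in cKO. Igf2bp3 (ENSMUSG00000029814, chromosome 6) had 61.3, 78.9, 69.3 and 59.1 CPM in WT and 45.1, 72.2 and 70.3 CPM in cKO. In each of the 3 genes cKO replicate 1 was the lowest library and WT replicate 4 the next, while the other cKO libraries lay within the WT range. The log2 fold changes were −0.11 (95% interval −0.43 to 0.22), −0.08 (−0.34 to 0.17) and −0.10 (−0.50 to 0.30). Without cKO replicate 1 they were 0.044, 0.026 and 0.091.

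**Figure D2:**
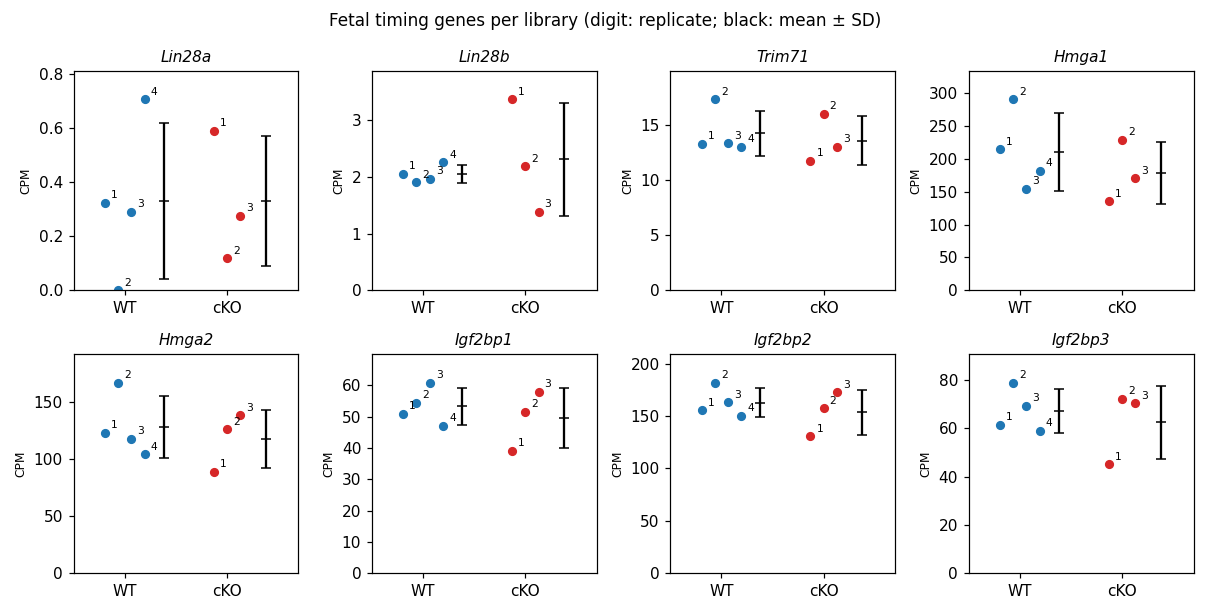
CPM of the 8 genes in each WT (blue) and cKO (red) library, with the replicate number beside each point and the mean ± SD in black (n = 4 and n = 3); each vertical axis starts at 0. The groups overlap in every panel, cKO replicate 1 is lowest for Trim71, Hmga1, Hmga2 and the 3 Igf2bp genes, and the same library is highest for Lin28b.

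In the comparison of genotypes, 0 of the 7 genes with enough counts passed an adjusted p of 0.05 (edgeR quasi-likelihood F test, Benjamini-Hochberg over 16910 features), against a background of 0.00591% of features called. Their adjusted p was 1.00 each, their unadjusted p ran from 0.371 to 0.675, and none reached an unadjusted 0.05, where the background was 1.38%. DESeq2, which called 0.0769% of all features, called 0 of the 7 as well. The deleted gene, 2610035D17Rik, did not pass the edgeR quasi-likelihood F test either (log2 fold change −1.76, adjusted p = 0.0902). It passed with DESeq2 (adjusted p = 1.25e-09). A gene without an edgeR call can thus still differ between the groups. For single genes the two-sided exact test, which permutes log2 CPM among all 35 divisions of the libraries, gave p from 0.457 (Hmga1) to 0.686 (Lin28b), and p = 1.00 for Lin28a. Groups did not overlap for 0 of the 7, where the background over all features was 2.72%, and did so with cKO lower for 0, where it was 1.43%. Fitted values were negative for 6 of the 7 and positive for Lin28b, with a median of −0.10, beside 54.0% negative and a median of −0.01 over all features. Without cKO replicate 1, 5 of these 6 turned positive. Without both it and WT replicate 4 the values were −0.15 for Lin28b, −0.14 for Hmga1, −0.04 for Hmga2, −0.015 for Igf2bp1, −0.015 for Igf2bp2, 0.031 for Igf2bp3 and −0.012 for Trim71. The intervals allow fold changes between 0.792 and 1.12 for Igf2bp2, the gene measured most precisely, between 0.673 and 1.25 for Hmga2, and between 0.693 and 1.84 for Lin28b. A change of 2-fold in the whole tissue thus lies outside the interval of each of the 7 genes in either direction. The intervals do not bound a change confined to the epithelium, where Cre acts, and that of Hmga1 is without Hmga1b.

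**Figure D3:**
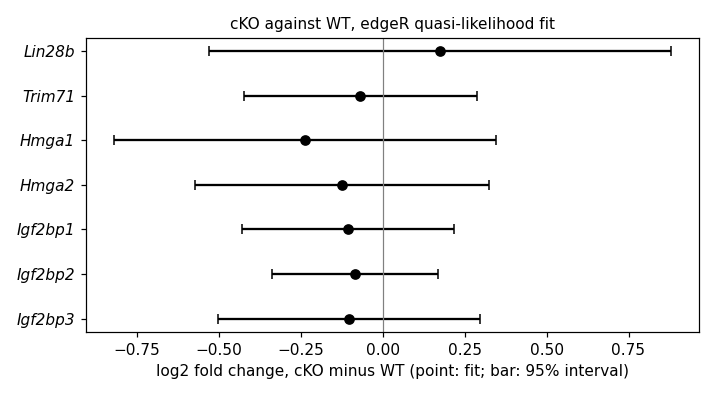
Fitted log2 fold change, cKO minus WT, of the 7 genes with enough counts, with 95% intervals (4 WT and 3 cKO libraries). Every interval includes 0, and Hmga1 and Lin28b have the widest.

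Among the other genes of the pathway 0 passed the threshold in each list, and single fitted values were larger than those of the 7 genes, up to 0.69 for Cdkn2b. Of the genes that cut and load microRNAs, 10 of 11 were matched, and 8 of these were negative and 2 positive, with a median log2 fold change of −0.06. Xpo5, which exports microRNA precursors from the nucleus, averaged 87.3 ± 9.61 CPM across WT (SD, n = 4) against 73.2 ± 12.4 CPM across cKO (SD, n = 3), with a fitted log2 value of −0.25 (95% interval −0.55 to 0.05). Drosha, which cuts the primary transcripts, averaged 95.3 ± 3.02 and 91.1 ± 8.50 CPM. Of the 5 genes that tail or degrade precursors, 3 were negative and 2 positive (median −0.01). Tut4, whose protein LIN28A recruits to tail pre-let-7, averaged 115 ± 12.5 CPM for WT against 103 ± 23.6 CPM for cKO. Dis3l2, the nuclease that removes tailed precursors, had 32.0 ± 3.30 and 29.5 ± 1.41 CPM. Of 5 genes whose transcripts host let-7 hairpins 3 were matched, all 3 negative (median −0.09), among them Huwe1 (WT 378 ± 109 CPM, cKO 350 ± 139 CPM).

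Among 31 other genes known as let-7 targets, 21 were negative and 10 positive in the fit, with a median of −0.04. Fas, a death receptor, had the highest value, a log2 fold change of 0.65 (95% interval −0.03 to 1.33; WT 1.95 ± 0.355 CPM, cKO 3.07 ± 1.19 CPM). Hic2, a transcriptional repressor, had 7.92 ± 1.00 and 6.43 ± 0.788 CPM. Over all tested genes with 2 or more let-7 seed matches the median was −0.03 (189 genes), with 1 match −0.03 (1317 genes) and with none −0.01 (12958 genes), and 60.3%, 60.9% and 54.2% of them were negative. Of 10 mRNAs bound by IGF2BP proteins, 7 were negative and 3 positive (median −0.04). Igf2, the fetal growth factor that gave the IGF2BP family its name, had 182, 201, 190 and 184 CPM in WT replicates 1 to 4 and 112, 204 and 231 CPM in cKO replicates 1 to 3. In the annotation used here 62.8% of its exon bases are shared with Gm49394 on the same strand, so its level is uncertain. H19, the imprinted RNA next to Igf2, averaged 5930 ± 405 CPM for WT against 6511 ± 386 CPM for cKO, with a log2 fold change of 0.13 (95% interval −0.07 to 0.34). In the list of 14 imprinted and growth genes that decline with age, 13 were tested, 10 negative and 3 positive (median −0.05), and Dlk1 was not tested, at 0.0419 ± 0.0523 CPM for WT and 0.0579 ± 0.0593 CPM for cKO. No other annotated gene shared exon bases with Dlk1. Whether its reads were lost in the counting was not tested, so these counts do not show that it is absent from the tissue. Of 11 tested HMG proteins and HMGA-related genes, 6 were negative and 5 positive (median −0.02). Cdkn2b, a cell cycle inhibitor, was the only one whose groups did not overlap (WT 0.716 ± 0.194 CPM, cKO 1.16 ± 0.147 CPM). Its level was low, the 95% interval of its log2 fold change was −0.03 to 1.42, and 2.72% of all tested features had groups without overlap. Of 19 genes of S phase and mitosis 17 were negative (median −0.06), and their summed level was 3130 to 3908 CPM in WT and 2938 to 3557 CPM in cKO, highest in WT replicate 2 and lowest in cKO replicate 1. The negative medians rested on single libraries. Without cKO replicate 1 the median was 0.035 for the microRNA processing genes, 0.014 for tailing and decay, 0.096 for let-7 hosts and 0.025 for other let-7 targets. In the same setting it was 0.02 for IGF2BP-bound mRNAs, 0.061 for the growth genes, 0.019 for HMG relatives and 0.004 for S phase and mitosis. Without WT replicate 2 it was 0.009 for S phase and mitosis, 0.011 for tailing and decay and 0.013 for HMG relatives, and stayed negative for the other lists.

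Although the genotypes overlapped, the libraries were ordered in a like way by most of the 8 genes. Of the 7 tested genes 6 were lowest in cKO replicate 1, the library in which 25.8% of all features were lowest. With Hmga1b added to Hmga1 this held for 5, since the sum was lowest in WT replicate 4 (200.5 CPM, against 216 CPM in cKO replicate 1). WT replicate 2 was the highest library for 5 of the 7, and 17.9% of all features were highest there. All 15 pairs among the 6 genes other than Lin28b had a positive Pearson correlation of log2 CPM over the 7 libraries (0.32 to 0.96, median 0.80), and all 6 pairs with Lin28b had a negative one (−0.87 to −0.33). Without the 2 libraries farthest from the median of the first gene of a pair, 4 of the 15 turned negative, Hmga1 with Igf2bp1 (−0.63), Igf2bp2 (−0.47) and Igf2bp3 (−0.07), and Igf2bp2 with Trim71 (−0.15). Without WT replicate 4 and cKO replicate 1, 3 of the 15 were negative (−0.69 to 0.89, median 0.46), and 4 of the 6 pairs with Lin28b stayed negative (−0.54 to 0.42). The 3 were Igf2bp1 with Hmga1 (−0.69), Trim71 (−0.38) and Hmga2 (−0.07). Pairs with Hmga1 used its own reads, which Hmga1b shares unevenly, and only the pair with Trim71 was also taken for the sum. After Benjamini-Hochberg adjustment over the 21 pairs and exact permutation over all pairings of the libraries, 4 pairs passed. Hmga2 and Igf2bp2 had r = 0.96 (adjusted p = 0.0167) and Spearman's rho = 0.89 (adjusted p = 0.0646), with r = 0.82 without the 2 libraries farthest from the median of Hmga2. Hmga2 and Igf2bp3 had r = 0.91 (adjusted p = 0.024) and rho = 0.93 (adjusted p = 0.0646), with r = 0.70 without those libraries. Igf2bp2 and Igf2bp3 had r = 0.95 (adjusted p = 0.0167) and rho = 0.89 (adjusted p = 0.0646), with 0.71 without 2 libraries. Hmga1 and Trim71 had r = 0.91 (adjusted p = 0.0167) and rho = 0.79 (adjusted p = 0.112), with 0.67 without 2 libraries, and r = 0.74 for the sum of Hmga1 and Hmga1b with Trim71. Without WT replicate 4 and cKO replicate 1 these 4 pairs had r = 0.89, 0.74, 0.77 and 0.86. By Spearman's rho 0 pairs passed. With group means removed the 4 values were 0.96, 0.90, 0.94 and 0.91. The pairs share libraries, so they are not independent of one another. The share of all gene pairs with such values was not taken. High correlations were common in these libraries: 588 of 10233 named genes with at least 10 CPM had r above 0.9 with Hmga2.

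To set this order beside developmental progress, 3 groups of genes were read in each library. Genes that rise as the pancreas matures were 24 digestive enzyme and acinar genes (such as Cela1 and Cpa1) and 14 endocrine genes (such as Ins2 and Gcg), and genes that are higher in early pancreas were 16 progenitor and signalling genes (such as Sox4 and Sox11). The difference of their mean log2 CPM, late minus early, was 0.80, 0.67, 0.88 and 1.68 in WT replicates 1 to 4 and 1.87, 1.31 and 0.81 in cKO replicates 1 to 3. cKO replicate 1 and WT replicate 4 were therefore at the late end, cKO replicate 2 came next, and the other 4 libraries lay close together at the early end, from both genotypes. The acinar genes set most of this, with a mean log2 CPM of 8.47 in WT replicate 4 and 8.51 in cKO replicate 1 against 7.08 to 7.90 in the other libraries. The early genes were lowest in cKO replicate 1 (5.38, against 5.64 to 5.78 elsewhere). WT averaged 1.01 ± 0.456 (SD, n = 4) and cKO 1.33 ± 0.530 (SD, n = 3), a difference of 0.32 that was smaller than the spread in either group. Without WT replicate 4 and cKO replicate 1 the averages were 0.78 ± 0.11 (SD, n = 3) and 1.06 ± 0.35 (SD, n = 2).

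Blood gave a second reading, because red cells of the yolk sac carry primitive globins (Hbb-y, Hbb-bh1 and Hba-x) and are replaced during gestation by cells from the fetal liver with definitive globins (Hbb-bs, Hbb-bt, Hba-a1 and Hba-a2). Primitive globins made up 2.06%, 1.40%, 1.73% and 0.683% of globin counts in WT replicates 1 to 4. They made up 0.216%, 0.728% and 0.50% in cKO replicates 1 to 3, of 17649 to 44897 globin counts per library. Exact binomial 95% intervals were 1.85% to 2.28% for WT replicate 1, 0.595% to 0.782% for WT replicate 4, 0.175% to 0.264% for cKO replicate 1 and 0.62% to 0.85% for cKO replicate 2, and cover counting error only. WT replicates 1 to 3 were thus high and WT replicate 4 lay among the cKO libraries. The means were 1.47% ± 0.587 in WT (SD, n = 4) and 0.481% ± 0.257 in cKO (SD, n = 3), with p = 0.0857 in a two-sided exact permutation test. Without WT replicate 4 and cKO replicate 1 the difference was −1.12 percentage points (exact permutation p = 0.10, the smallest that 3 against 2 libraries allow). With beta-like globins alone, Hbb-y was 2.68% ± 1.19 of the counts in WT and 0.688% ± 0.331 in cKO (exact permutation p = 0.0571), and the groups did not overlap. Hbb-y was already known to be lower in cKO when this measure was chosen, so that the direction and these permutation p values are a description. The summed level of 9 erythroid markers was 875 to 2054 CPM in WT and 1162 to 2519 CPM in cKO, highest in cKO replicate 1 and WT replicate 4, the libraries with the most liver RNA. The part of liver RNA in the globin shares was not tested.

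**Figure D4:**
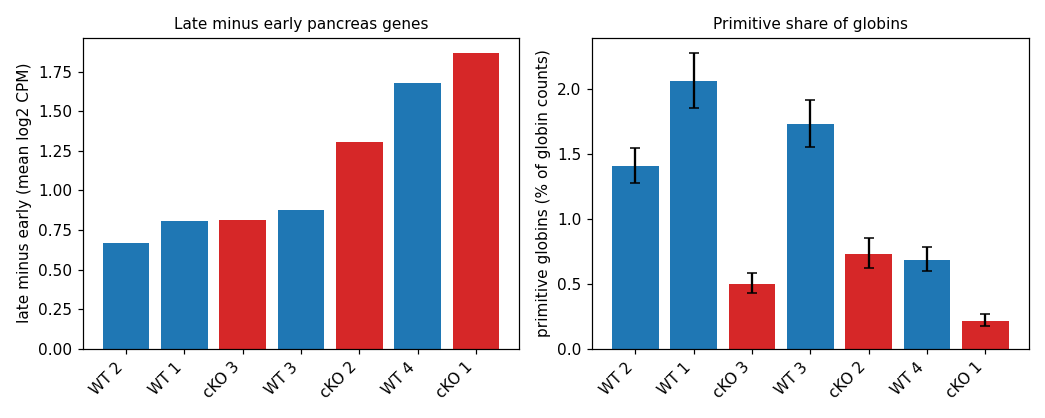
Left, mean log2 CPM of late minus early pancreas genes in each library; right, primitive globins as a percentage of globin counts with exact binomial 95% intervals; libraries are in the same order in both panels (blue WT, red cKO). cKO replicate 1 has the highest late minus early value, 1.87, and the lowest primitive share, 0.216%, whereas cKO replicate 3 is at the early end on the left and has a low share, 0.50%, on the right.

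Set against the late minus early value over the 7 libraries, 6 of the 7 genes had a negative correlation and Lin28b a positive one, and 5 passed Benjamini-Hochberg adjustment over the 7 relations with exact permutation over all pairings. Igf2bp2 had Pearson's r = −0.87 (adjusted p = 0.0176) and Spearman's rho = −0.79 (adjusted p = 0.112), and Hmga2 had r = −0.86 (adjusted p = 0.0176) and rho = −0.82 (adjusted p = 0.112). Igf2bp1 had r = −0.85 (adjusted p = 0.0184) and rho = −0.57 (adjusted p = 0.20), and Igf2bp3 had r = −0.79 (adjusted p = 0.0314) and rho = −0.68 (adjusted p = 0.192). Lin28b had r = 0.79 (adjusted p = 0.0176) and rho = 0.82 (adjusted p = 0.112). Hmga1 (r = −0.53, rho = −0.61) and Trim71 (r = −0.49, rho = −0.57) did not pass. For the sum of Hmga1 and Hmga1b r was −0.76, a value that was not among the 7 relations tested. By Spearman's rho 0 of the 7 passed. The share of all features that would pass the same two-sided permutation test was not taken, so these counts have no background beside them.

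These relations were weaker without both WT replicate 4 and cKO replicate 1, the 2 libraries farthest from the median and the highest in liver markers. Over the other 5 libraries r was −0.62 for Igf2bp2, −0.51 for Hmga2, −0.31 for Igf2bp1, −0.02 for Igf2bp3 and 0.44 for Lin28b. Without cKO replicate 1 alone r was −0.76 for Igf2bp2, −0.74 for Hmga2, −0.69 for Igf2bp1, −0.55 for Igf2bp3 and 0.58 for Lin28b, and 0 of the 7 genes passed. Without WT replicate 4 alone r was as large as with it for most (−0.90, −0.85, −0.85, −0.81 and 0.85 in the same order), and 0 passed with the 6 libraries left, at adjusted p of 0.0778 to 0.107 for these 5 by exact permutation. With group means removed r was −0.86 for Hmga2 and Igf2bp2, −0.83 for Igf2bp1, −0.77 for Igf2bp3 and 0.81 for Lin28b, with adjusted p from 0.0972 to 0.146 in exact permutations within groups. Over all 16910 features the quartiles of r with the same value were −0.51 and 0.48. The share of features with a lower r was 3.94% for Igf2bp2, 4.65% for Hmga2, 5.72% for Igf2bp1 and 9.69% for Igf2bp3. It was 24.2% for Hmga1, 25.7% for Trim71 and 91.7% for Lin28b. These shares count 1 direction only and are not shares of features that pass the permutation test. The part of liver RNA and of the acinar share of the tissue in these relations was not tested.

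**Figure D5:**
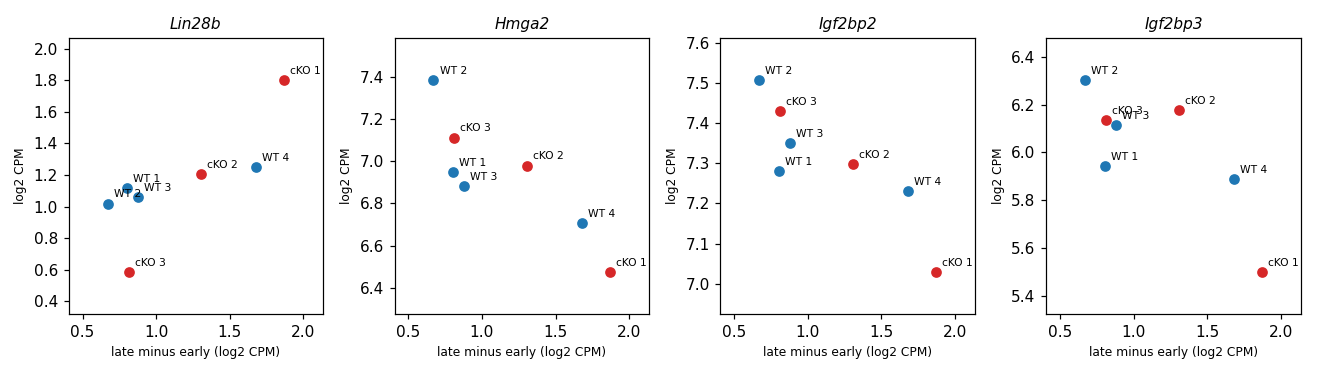
log2 CPM of Lin28b, Hmga2, Igf2bp2 and Igf2bp3 against the late minus early value in the 7 libraries (blue WT, red cKO). WT replicate 4 and cKO replicate 1 are at the right in each panel; Hmga2, Igf2bp2 and Igf2bp3 are lowest and Lin28b is highest in cKO replicate 1.

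In most readouts cKO replicate 1 stood at an end of the order, and the orders differed after it. It had the highest late minus early value, the lowest primitive globin share, the lowest level of S phase and mitosis genes and the lowest level of 6 of the 7 genes, or of 5 with Hmga1b added to Hmga1, while its Lin28b was the highest. By the late minus early value WT replicate 4 came next, and by primitive share cKO replicate 3. WT replicate 2 had the lowest late minus early value and the highest Hmga2, Igf2bp2 and Igf2bp3, but WT replicate 1 had the highest primitive share. cKO replicate 3 had a primitive share below those of all WT libraries, together with the second highest Hmga2, Igf2bp1 and Igf2bp2 of all libraries. Among all features, 25.8% were lowest and 23.7% highest in cKO replicate 1, which was also the library highest in liver markers. Stage itself was not measured, so that stage and the makeup of the dissected tissue cannot be told apart.

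The genes whose pattern over the 7 libraries was most like that of Hmga2, by Pearson's r of log2 CPM among 10233 named genes with at least 10 CPM, were Slc35g1, Melk and Cse1l (r = 0.99 each), and 588 genes had r above 0.9. Melk, a kinase of dividing cells, ran from 59.0 CPM in cKO replicate 1 to 76.4 CPM in WT replicate 2. For Igf2bp1 they were Ski, Sox4 and Cdc42bpa (r = 1.00, 0.99 and 0.99), and 649 genes had r above 0.9. Sox4, a progenitor transcription factor that is also among the early genes used above, ran from 102 CPM in cKO replicate 1 to 155 CPM in WT replicate 3. For Lin28b they were Trir, Il3ra and Cox6b1 (r = 0.99, 0.98 and 0.98), and 133 genes had r above 0.9. Cox6b1, a subunit of the respiratory chain, ran from 101 CPM in cKO replicate 3 to 152 CPM in cKO replicate 1. With 7 libraries such values are reached by many genes and are given as a description.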

How the data were processed

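Polyadenylated RNA from the pancreas of 7 embryos was sequenced, 4 WT and 3 cKO, each replicate an independent animal per the labels. The authors deposited whole-number read counts for each feature in a single table, with no depth scaling. HISAT2, StringTie, featureCounts and mm39 are named without roles or versions, per the submitters' processing notes. Per the labels' protocols the library kit is one that does not mark strand. Features without an Ensembl identifier held 0.206% of counts. Symbols and gene models came from GENCODE M21 on GRCm38, another build, so coordinates are given only for printed sequences.

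The main test was edgeR 4.0.16 under R 4.3.3 (filterByExpr, 16910 features, TMM, robust glmQLFit, glmQLFTest, group as the only term), with Benjamini-Hochberg adjustment and a threshold of 0.05. SEs and 95% intervals were derived from the F statistic. CPM used library totals scaled by TMM, and log2 CPM added a prior count of 2. DESeq2 1.42.0 and limma 3.58.1 (voom) were alternatives, with other scalings, filters, a replicate block, a covariate and each library left out. Hmga1 with Hmga1b, and the pairs and late minus early difference without WT replicate 4 and cKO replicate 1, were added after seeing the data. The genes and all 25 lists, of which 285 of 289 entries matched, were chosen with earlier results of these data known. Genes named were the 8, at most the 2 with the smallest p of a list, the 3 nearest in pattern to Lin28b, Hmga2 and Igf2bp1, and 2610035D17Rik, Igf2, H19 and Hbb-y. Hmga1b, Dlk1 and the genes that overlap others were named after their values were seen.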

Additional observations from a re-analysis of the deposited data

Results flagged for a closer look

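Among 13 readings of the 4 WT libraries, 3 had a library whose gap to its neighbour was large for the range of the group, where chance gives about 1 in 20. Trim71 was 17.3 CPM in WT replicate 2, and the next library had 13.3 CPM. The mean log2 CPM of late acinar genes was 8.47 in WT replicate 4, with 7.28 next, and that of late endocrine genes was 6.17 in the same library, with 5.78 next. The summed liver markers of WT replicate 4 were 1327 CPM, and their part in these readings was not tested. Groups of 3 cKO libraries were too small for this reading.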

How the results depend on the processing

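Under 17 other settings 0 of the 7 tested genes passed the threshold, and 97 of 120 log2 differences were negative, among them 1 that was not fitted, the difference in mean log2 CPM of Hmga1 and Hmga1b summed. Leaving out 1 library at a time gave −0.19 to 0.44 for Lin28b, −0.25 to 0.049 for Hmga2, −0.23 to 0.044 for Igf2bp1, −0.18 to 0.026 for Igf2bp2, −0.22 to 0.091 for Igf2bp3 and −0.21 to 0.040 for Trim71, while Hmga1 stayed negative (−0.46 to −0.04). Without cKO replicate 1 the sign turned for each of these but Hmga1, and without WT replicate 2 for Hmga2 and Trim71. With WT replicate 4 and cKO replicate 1 both left out, Lin28b was −0.15 and Igf2bp3 0.031. Among all features the 1 call became 0 with DESeq2 size factors, library totals, a filter at 1 CPM, a fit that was not robust or an epithelium minus mesenchyme covariate, 4 with no filter, 13 with DESeq2 and 0 to 3 without 1 library. With the replicate number as a block it became 13, with 0 of the 7 genes among them. Same-numbered libraries deviated together with r of 0.284, 0.419 and 0.0597. For cKO replicates 1 and 2 the same-numbered WT library gave the highest r, whereas cKO replicate 3 correlated best with WT replicate 2 (0.296). These values do not settle whether the numbers pair the libraries. The labels call each replicate an independent animal, and the main test did not pair them. The 5 relations with the late minus early value became 0 with group means removed and 0 to 5 without 1 library. They became 0 without cKO replicate 1, where r was smaller in size for all 5, and 0 without WT replicate 4, where r was 0.85 for Lin28b and −0.90 to −0.81 for the others. The difference in primitive globin share, −0.987 percentage points, ran from −1.25 to −0.79. List medians moved by more than their spread in 2 of 136 values, both without cKO replicate 1. The causes were not tested. Lin28a and Lin28b, with 0 to 57 counts a library, are limited by depth.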
